A study of Canis lupus familiaris with 4 samples.

Results

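The Krüppel-like factors (KLF) are transcription factors that bind GC-rich and CACCC elements in promoters through zinc fingers at the end of the protein. Of 9 KLF genes listed by symbol, KLF3, KLF4, KLF6, KLF7, KLF9, KLF10 and KLF11 had a row in both deposited tables, so 7 of the 11691 genes that the tables share are described. KLF2 and KLF13 were not analysed here. Messenger RNA came from CD8+ T cells of 2 healthy mixed-breed dogs, purified from blood mononuclear cells after 14 to 20 days in medium with IL-2 (2500 IU/mL) and 2-mercaptoethanol (50 µM), which all 4 libraries share. The exosome group (2 libraries) received exosomes of CLBL-1 cells, a line grown from dog B cell lymphoma (DLBCL), and the control group (2 libraries) received PBS. The dose was 50 µg/mL by the design text, whereas the treatment label also lists 100 and 200 µg/mL. The labels give 48 h of exposure throughout, but the column names carry 24 h in the table of pair 1 and 48 h in that of pair 2, and by label the dog of pair 1 was female and that of pair 2 male. Each pair is 1 exosome and 1 control library of 1 dog, so dog, sex, any difference in exposure time and any batch of a pair cannot be told apart. In these bulk libraries, fewer cells of a type and less RNA per cell cannot be told apart either.

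In mouse T cells, KLF2 and KLF4 are known to hold cells in quiescence, and KLF2 directs the homing receptors of naive and memory cells. KLF3, KLF8 and KLF12 repress genes through the corepressor CtBP. KLF4, KLF6 and KLF7 belong to a branch that mainly activates genes, while KLF9, KLF10, KLF11 and KLF13 recruit the corepressor SIN3A. KLF9 is induced by glucocorticoids, and KLF10 and KLF11 were named as early genes of the TGF-beta response.

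Levels are scaled read counts, that is, the reads of a gene divided by 1 factor per library. Recovered reads over the shared genes numbered 10056143 and 12046358 in the exosome libraries and 12325953 and 9417298 in the control libraries of pairs 1 and 2. The members differed widely in depth. KLF6 rested on 1825 to 6102 reads per library and KLF10 on 518 to 1055, whereas KLF4 had 1 to 22 reads. KLF3 had 4 and 1 reads in the exosome and control library of pair 1 and 468 and 227 in those of pair 2. Gene lengths were not used, so levels are compared between libraries and not between genes.

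The main comparison asked which KLF transcripts moved when CD8+ T cells met lymphoma exosomes in place of PBS. KLF6 was lower with exosomes in both pairs, KLF11 was higher in both, and KLF10 and KLF4 pointed opposite ways in the 2 pairs. No member passed the test across all genes (limma with the pair as a block, adjusted p under 0.05), where 0.744% of all genes did. edgeR called 0 members and 0% of all genes, and DESeq2 called 0 members and 1.37% of all genes. DESeq2 gave no adjusted p for KLF4, and genes without one are counted here as not called. At an unadjusted p under 0.05 limma gave 1 of 7 members, KLF6, beside 15.9% of all genes. KLF3, KLF9 and KLF11 were higher in both pairs, which is 3 of 7 beside 27.8% of all genes. KLF6 and KLF7 were lower in both, which is 2 of 7 beside 32.5%. The median log2 fold of the members was 0.10, against -0.01 for all genes. These counts are a description of few genes, 3 of which (KLF3, KLF4 and KLF7) had 7 reads or fewer in both libraries of a pair, and none is read as a property of the family.

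**Figure D1:**
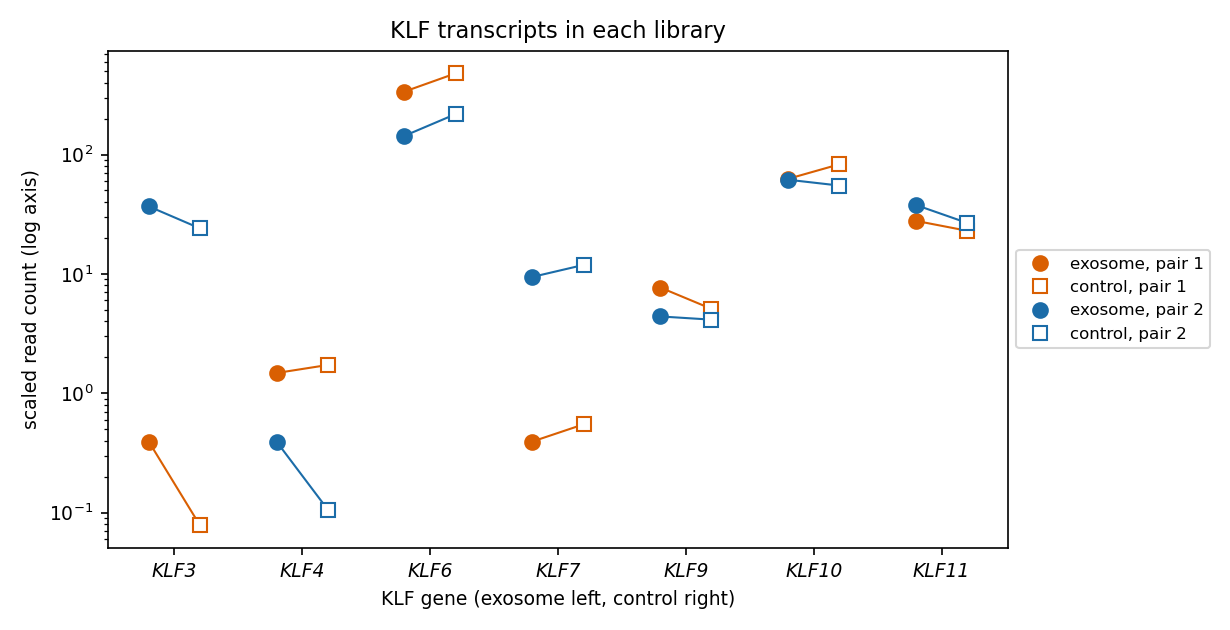
Scaled read count (log axis) of each KLF gene in each library. Filled circles are exosome libraries, open squares control libraries, and lines join the libraries of a pair. KLF6 lies lower in the exosome library of both pairs, and KLF3 lies at 36.8 and 24.1 in pair 2 but at 0.394 and 0.0785 in pair 1.

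Among the activator branch, KLF6, a broadly expressed factor induced by injury and growth signals, stood at 337 and 144 in the exosome libraries of pairs 1 and 2, against 479 and 218 in the control libraries. Within each pair the exosome library was the lower one, while the ranges of the groups overlapped because both libraries of pair 2 lay under both of pair 1. The exosome level was 0.704 times the control level in pair 1 (95% interval 0.675 to 0.734) and 0.658 times in pair 2 (0.617 to 0.701). These intervals cover counting error only, since each side is 1 library, and reads without molecular identifiers are not independent molecules. Across both pairs the log2 fold was -0.55 ± 0.23 (SE), with a 95% interval of -1.05 to -0.06 before adjustment and an adjusted p of 0.255 by limma. This SE is moderated by limma towards the spread typical of the table, as 1 residual degree of freedom alone would say little about KLF6. In the authors' deposited table, which used a fold of 1.5 and an unadjusted p of 0.05, KLF6 was listed as changed in pair 2 and not in pair 1. Its log2 fold in pair 2 was -0.60 (unadjusted p = 0.00125 by DEGseq). In pair 1 only the fold limit was missed (log2 fold -0.51, unadjusted p = 1.45e-07 by DEGseq). KLF6 was the only member listed as changed in either table, beside 11.7% of genes in the list of pair 1 and 4.94% in that of pair 2. Those p-values compare 1 library with 1 and not the conditions.

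KLF4, which restrains proliferation of CD8 T cells in mice and also marks monocytes, stood at 1.48 and 0.393 in the exosome libraries, against 1.73 and 0.106 in the control libraries. These levels rest on 15 and 5 reads in the exosome libraries and 22 and 1 reads in the control libraries, so a change by exosomes was not detectable at this depth in either direction. The ratio was 0.857 in pair 1 (0.413 to 1.73) and 3.70 in pair 2 (0.415 to 175). KLF7, studied mainly for its role in mouse neurons, stood at 0.394 and 9.44 in the exosome libraries, against 0.549 and 11.9 in the control libraries. The exosome library was the lower one in both pairs, but both counting intervals included 1 (0.154 to 2.82 in pair 1 and 0.608 to 1.04 in pair 2).

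KLF3, a CtBP-dependent repressor that shapes B cell subsets in mice, stood at 0.394 and 36.8 in the exosome libraries, against 0.0785 and 24.1 in the control libraries. Only pair 2 had enough reads to compare its libraries, and there the exosome level was 1.53 times the control level (1.30 to 1.80). In pair 1 the ratio of 4 reads to 1 read was 5.03 with an interval of 0.497 to 248. The log2 fold over both pairs was 0.48 ± 0.23 (SE, adjusted p = 0.335 by limma). This value lies under the log2 folds of both pairs (2.33 and 0.61), as the added 1 shrank it. By edgeR on the reads the log2 fold was 0.76 (adjusted p = 0.389), and both estimates include the few reads of pair 1.

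In the SIN3A-binding branch, KLF11 stood at 27.8 and 37.8 in the exosome libraries, against 23.0 and 26.7 in the control libraries. It was the only member whose groups did not overlap, in a table where 12.9% of genes had both exosome libraries above both controls and 14.3% had both below. The ratio was 1.21 in pair 1 (1.02 to 1.43) and 1.41 in pair 2 (1.21 to 1.65). Its log2 fold was 0.37 ± 0.23 (SE), with an interval of -0.13 to 0.87 and an adjusted p of 0.483 by limma.

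KLF10, which can repress the TGF-beta inhibitor SMAD7, stood at 62.6 and 61.5 in the exosome libraries, against 82.8 and 55.0 in the control libraries. Both exosome libraries lay between the 2 controls. The ratio was 0.756 in pair 1 (0.684 to 0.835) and 1.12 in pair 2 (1.00 to 1.25), so the pairs pointed opposite ways by more than counting error in pair 1 and at its edge in pair 2. The log2 fold over both was -0.12 ± 0.24 (SE, adjusted p = 0.877 by limma), with an interval of -0.64 to 0.41 that still holds changes of either sign.

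KLF9 stood at 7.69 and 4.40 in the exosome libraries, against 5.10 and 4.14 in the control libraries. The ratio was 1.51 in pair 1 (1.07 to 2.13) and 1.06 in pair 2 (0.694 to 1.64), on 39 to 78 reads per library. Its log2 fold was 0.29 ± 0.24 (SE, adjusted p = 0.63 by limma).

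Differences of more than 1.5-fold between the libraries of a pair were seen for 2 of 7 members in pair 1 (KLF3 and KLF9) and 3 of 7 in pair 2 (KLF3, KLF4 and KLF6). The same held for 28.3% of all genes in pair 1 and 19.4% in pair 2. Of these, KLF6 in pair 2 rested on 1825 and 2056 reads, KLF3 in pair 2 on 468 and 227, and the others on 78 or fewer in each library.

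**Figure D2:**
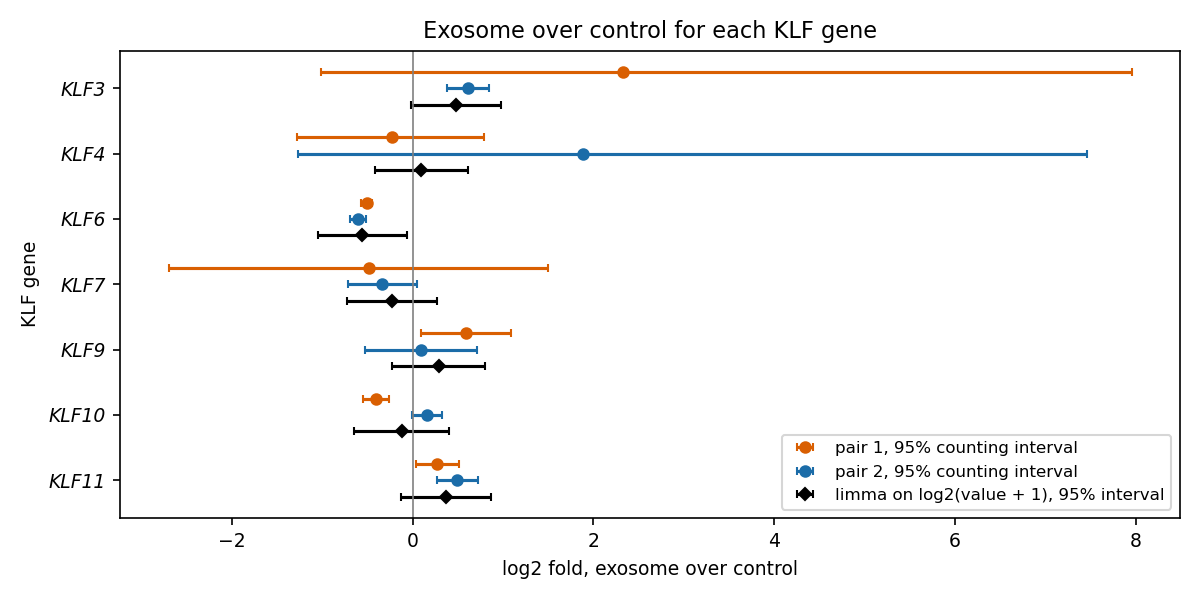
Log2 fold of exosome over control for each KLF gene. Circles are the 2 pairs with 95% intervals for counting error only, and diamonds are the limma estimate on log2(value + 1) with its 95% interval. KLF6 lies under 0 in both pairs, KLF11 above 0 in both, KLF10 on opposite sides, and the intervals of KLF3 and KLF7 in pair 1 and of KLF4 in both pairs are wide.

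For 6 of 7 members, all but KLF11, the log2 difference between the pairs was larger in size than that between the treatments. The same share over all genes was not counted, so this is not read as a trait of the KLF genes. Over the whole table limma called 25.3% of genes for the pair and 0.744% for the treatment. The comparison of the pairs was added after the values were seen, and it tests the pair term of the same limma fit. KLF3 was far higher in pair 2, with 36.8 in the exosome and 24.1 in the control library of pair 2, against 0.394 and 0.0785 in those of pair 1. Between exosome libraries pair 2 was 93.3 times higher (95% counting interval 36.2 to 344), and between control libraries 307 times (54.6 to 12180). On the log2(value + 1) scale the difference was 4.65 ± 0.23 (SE, adjusted p = 4.16e-08 by limma). By edgeR on the reads, without the added 1, it was 7.03 (adjusted p = 0.000202). By limma, 26 of 11691 genes had a larger absolute difference between the pairs. None of the 11691 had a value of 0 in any library, so genes without reads in a library are not in this ranking.

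KLF7 was likewise higher in pair 2, by 23.9 times between exosome libraries (9.11 to 89.2) and 21.6 times between controls (10.2 to 55.1). On the log2(value + 1) scale its difference was 2.98 ± 0.23 (SE, adjusted p = 1.07e-06 by limma), and by edgeR on the reads it was 4.46 (adjusted p = 0.00106). The added 1 shrank the limma value, as KLF7 had 4 and 7 reads in the exosome and control library of pair 1. The moderated SE does not show the width of the counting intervals. KLF6 was lower in pair 2, at 0.426 times the level of pair 1 between exosome libraries (0.402 to 0.451) and 0.456 times between controls (0.433 to 0.479), with a log2 difference of -1.18 ± 0.23 (SE, adjusted p = 0.00209 by limma). KLF4 was lower in pair 2 by limma (log2 difference -1.07, adjusted p = 0.00526), but not by edgeR on its few reads (adjusted p = 0.0509).

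KLF9, KLF10 and KLF11 did not pass this test (limma adjusted p = 0.182, 0.418 and 0.367). Thus limma called 4 of 7 members for the pair and edgeR 3 of 7, beside 25.3% and 19.7% of all genes. The test has 2 libraries on each side and speaks of these 2 cultures, not of sexes or times.

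**Figure D3:**
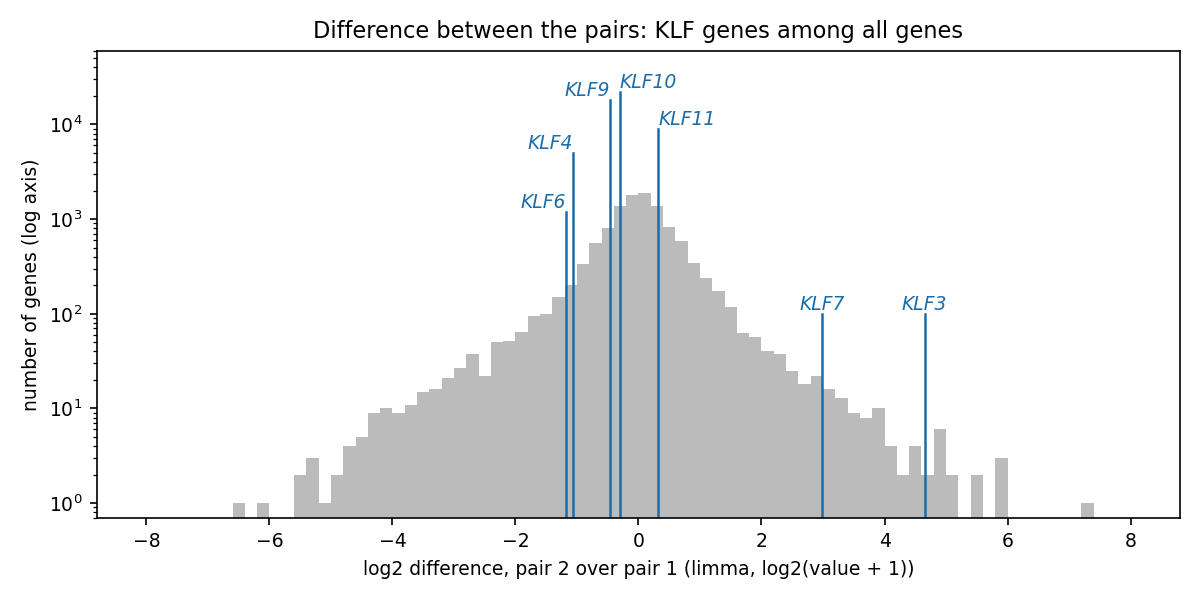
Log2 difference of pair 2 over pair 1 (limma, log2(value + 1)) over all 11691 genes (grey bars, number of genes on a log axis, bins of 0.2). Lines mark the KLF genes, and their heights carry no value. KLF3 at 4.65 and KLF7 at 2.98 lie in the right tail, and KLF9, KLF10 and KLF11 lie near the centre.

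The genes whose levels followed each member most closely were sought by the root mean square difference of centred log2(value + 1) values over the 4 libraries, among 6610 genes with a mean level of at least 20. It rests on 4 libraries, 2 of each dog, and is given as a description. Nearest to KLF3 were CD6 and CD5, both T cell surface receptors that temper receptor signalling. CD6 stood at 533 and 438 in the exosome and control library of pair 2, against 14.3 and 15.0 in those of pair 1, and CD5 at 411 and 347 in pair 2, against 23.6 and 13.3 in pair 1. Their root mean square differences from KLF3 were 0.242 and 0.247.

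Nearest to KLF7 were SPOCK2, a matrix proteoglycan gene, and EOMES, a transcription factor of effector and memory T cells (0.109 and 0.110). EOMES stood at 46.0 and 50.6 in the exosome and control library of pair 2, against 5.92 and 6.04 in those of pair 1. Nearest to KLF6 were VIM, the intermediate filament vimentin (0.0377), and the kinase gene MAP2K4 (0.0565). VIM stood at 2234 and 968 in the exosome libraries of pairs 1 and 2, against 3364 and 1535 in the control libraries. The pairs of genes nearest to the others were FLAD1 and RNPEP for KLF4, ITCH and ERLEC1 for KLF9, CUTA and C24H20orf194 for KLF10, and FAU and RRNAD1 for KLF11. The added 1 shrank the profile of KLF4, which had 1 to 22 reads per library. Its log2 difference between the pairs was -1.07 by limma on log2(value + 1) and -2.58 by edgeR. The genes named for KLF4 match that shrunken profile, and the few reads of KLF3 and KLF7 in pair 1 set the same limit.

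Of the other KLF and SP genes, 6 of 17 listed had a row of their own, and 0 were called. KLF12, a CtBP-dependent repressor like KLF3, stood at 11.6 and 41.3 in the exosome libraries, against 22.5 and 41.6 in the control libraries. The exosome library was the lower one in pair 1, and the 2 libraries of pair 2 were level. KLF12 was also higher in pair 2 than in pair 1 (log2 difference 1.30 ± 0.26, SE, adjusted p = 0.00261 by limma). SP4 stood at 105 and 93.2 in the exosome libraries, against 67.6 and 105 in the controls, and was in the authors' deposited list of changed genes for pair 1 alone. SP3 stood at 218 and 198 in the exosome libraries, against 193 and 185 in the controls.

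Genes that act upstream of KLF factors or govern their turnover, from FOXO factors and the MEK5 to ERK5 to MEF2 route to ubiquitin ligases, gave 0 calls among 11 of 12 measured. Their median log2 fold was 0.26, against -0.01 over all genes. In both pairs 6 were higher and 1 lower, beside 27.8% and 32.5% of all genes. FOXO1, which activates KLF2 in mouse T cells, stood at 52.7 and 55.5 in the exosome libraries, against 22.1 and 54.6 in the controls (adjusted p = 0.31 by limma). FOXO3 stood at 79.3 and 74.4 in the exosome libraries, against 54.8 and 51.4 in the controls (0.28). MEF2D stood at 100.4 and 50.3 in the exosome libraries, against 69.7 and 35.9 in the controls (0.312).

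Cofactors gave 0 calls among 10 of 11 with a row of their own, as SIN3A shares its identifier with PTPN9. The median log2 fold was 0.19, with 5 higher and 1 lower in both pairs, beside 27.8% and 32.5% of all genes. SIN3B, the second SIN3 scaffold, stood at 183 and 77.6 in the exosome libraries, against 93.5 and 65.2 in the controls (limma adjusted p = 0.255). The acetyltransferase KAT2B stood at 260 and 130 in the exosome libraries, against 121 and 117 in the controls (0.266). SAP30, a subunit of the SIN3 complex, stood at 25.0 and 34.1 in the exosome libraries, against 18.8 and 25.9 in the controls (0.45).

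Among trafficking genes tied to KLF2 in mouse T cells, 5 of 7 were measured and 0 called by limma, with a median log2 fold of -0.02. CCR7, a chemokine receptor of lymph node homing, stood at 5.33 and 96.9 in the exosome libraries, against 3.69 and 86.3 in the controls (adjusted p = 0.605 by limma). It was higher in pair 2 than in pair 1, as KLF3 was, by a log2 difference of 4.09 ± 0.23 (SE, adjusted p = 1.07e-07 by limma). CXCR3, an inflammatory chemokine receptor that rises when KLF2 is lost in mice, stood at 28.3 and 43.1 in the exosome libraries, against 76.7 and 55.6 in the controls (0.125).

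Of 9 listed cell cycle and survival genes that KLF factors are known to regulate, 7 were measured and 0 called by limma, with a median log2 fold of -0.64. In both pairs 6 were lower and 1 was higher, beside 32.5% and 27.8% of all genes. The higher one, the kinase inhibitor CDKN1B, stood at 184 and 241 in the exosome libraries, against 121 and 184 in the controls (adjusted p = 0.321 by limma). Both exosome libraries lay under both controls for 5 of the 7, beside 14.3% of all genes. MYC, which KLF2 represses in human T cell lines, stood at 23.3 and 122 in the exosome libraries, against 127 and 176 in the controls. Its adjusted p was 0.0648 by limma, 0.256 by edgeR and 0.595 by DESeq2. BCL2L1, an inhibitor of apoptosis, stood at 24.3 and 40.9 in the exosome libraries, against 66.3 and 73.2 in the controls. The tools split on BCL2L1, with an adjusted p of 0.0526 by limma, 0.17 by edgeR and 0.0145 by DESeq2. CCND3, a D-type cyclin, stood at 95.4 and 148 in the exosome libraries, against 206 and 204 in the controls (0.135 by limma).

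Cytokine and effector genes with reported KLF input gave 0 calls among 7 of 9 with a row of their own, and a median of -0.05. IFNG stood at 1.68 and 20.8 in the exosome libraries, against 8.16 and 36.0 in the controls (adjusted p = 0.0526 by limma). TNF stood at 12.1 and 35.0 in the exosome libraries, against 31.2 and 59.4 in the controls (0.0627). TBX21, the transcription factor T-bet, stood at 71.8 and 120 in the exosome libraries, against 168 and 109 in the controls (0.417). The TGF-beta list had 9 of 10 measured and 0 called, with a median of 0.18. TGIF1, a corepressor of SMAD signalling, stood at 24.4 and 14.7 in the exosome libraries, against 9.26 and 8.49 in the controls (adjusted p = 0.0648 by limma). SKIL, an early SMAD target and inhibitor, stood at 106 and 57.6 in the exosome libraries, against 40.4 and 42.5 in the controls (0.111). TGFBR2 stood at 159 and 165 in the exosome libraries, against 90.4 and 140 in the controls (0.315).

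The list of the glucocorticoid receptor and genes it can induce, to which KLF9 relates, was the only one of the 8 with calls by limma. Of 11 measured, 2 were called higher and 1 lower, beside 0.248% and 0.496% of all genes, and the median log2 fold was 0.16. PER1, a circadian repressor, stood at 47.8 and 29.4 in the exosome libraries, against 8.32 and 6.69 in the controls, a log2 fold of 2.19 ± 0.24 (SE, adjusted p = 0.00326 by limma). TSC22D3, also called GILZ, stood at 403 and 140.4 in the exosome libraries, against 107 and 52.3 in the controls, a log2 fold of 1.65 ± 0.24 (SE, adjusted p = 0.0117 by limma). TXNIP, an inhibitor of thioredoxin, fell to 174 and 154 in the exosome libraries, against 517 and 299 in the controls (limma adjusted p = 0.0403). edgeR called none of the 3 (adjusted p = 0.154 for each), and DESeq2 called all 3. CXCR4, a chemokine receptor, stood at 605 and 162 in the exosome libraries, against 138 and 103 in the controls. Its adjusted p was 0.0565 by limma, 0.195 by edgeR and 0.00253 by DESeq2. FKBP5, a cochaperone of the glucocorticoid receptor, stood at 116 and 162 in the exosome libraries, against 211 and 204 in the controls (0.243 by limma). Earlier results of these data were known for PER1 and TSC22D3 when the list was drawn up, so the list is no independent evidence of its direction.

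**Figure D4:**
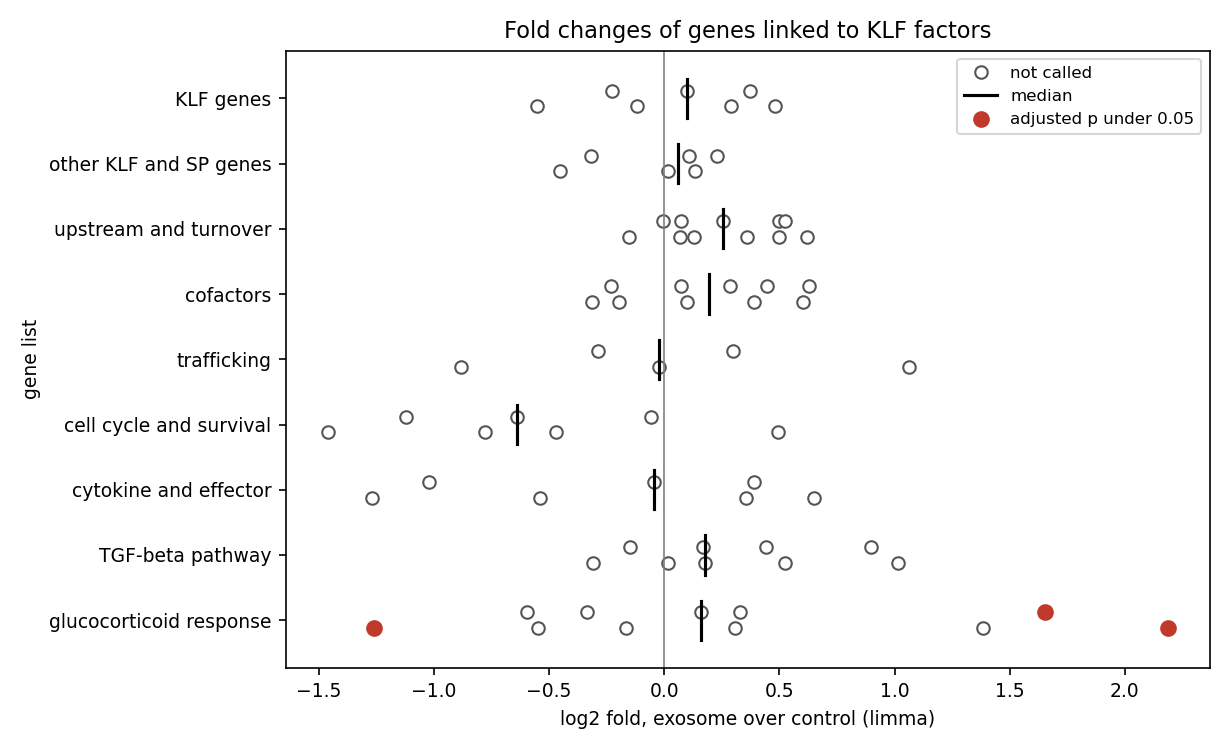
Log2 fold of exosome over control (limma) for each measured gene of the 9 lists, with a bar at the median of each list. Filled points passed an adjusted p under 0.05 and open points did not. The 7 KLF genes spread on both sides of 0, and the cell cycle and survival list has its median at -0.64.

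Markers of cell types were set beside these values, and their part in them was not tested. Of 8 T cell markers 7 were measured, and of these only CD8A and CD8B are CD8 chains. The summed level of the 7 was 1528 and 3427 in the exosome libraries of pairs 1 and 2, against 1846 and 3513 in the controls. CD8B stood at 528 and 479 in the exosome and control library of pair 2, against 72.7 and 73.4 in those of pair 1. The pair term was called for CD8B (limma adjusted p = 2.12e-06). CD3D, CD2 and CD5 were also called higher in pair 2 (limma adjusted p = 0.000503, 0.00158 and 9.92e-08). CD8A, CD3E and CD3G were not called for the pair (limma adjusted p = 0.144, 0.2 and 0.5), so the T cell markers did not move together. The 4 measured of 5 NK markers summed to 772 and 228 in the exosome libraries, against 466 and 247 in the controls, so the sum was higher in pair 1, where KLF3 and KLF7 were low. Single NK markers went both ways between the pairs. KLRD1 and KLRB1 were lower in pair 2 (log2 differences of -1.87 and -3.03), and NCR1 and NCR3 were higher in pair 2 (0.95 and 1.80), with limma adjusted p = 0.000285, 9.21e-07, 0.0279 and 0.000826 in that order. KLRD1, with 666 and 124 in the exosome libraries, against 213 and 85.0 in the controls, was the only 1 of the 4 higher with exosomes. KLRB1, NCR1 and NCR3 were lower with exosomes in both pairs, so the rise of the sum in pair 1 came from KLRD1 alone. For B cells, whose lymphoma gave the exosomes, 3 of 8 markers had a row of their own and summed to 10.3 and 5.03 in the exosome libraries, against 20.0 and 6.58 in the controls. Of 8 monocyte and macrophage markers only CD68 did, at 2.17 and 1.02 in the exosome libraries, against 0.471 and 0.849 in the controls. CD4 and CD40LG summed to 40.5 and 52.4 in the exosome libraries, against 28.9 and 60.4 in the controls. Dendritic cell markers (2 of 5) summed to 10.9 and 17.4 in the exosome libraries, against 24.1 and 21.0 in the controls, and ITGA2B, the single gene measured of 7 erythroid and platelet markers, stood at 1.68 and 2.60 in the exosome libraries, against 1.96 and 1.38 in the controls. No neutrophil marker of 6 had a row of its own.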

How the data were processed

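Messenger RNA libraries of 2 exosome and 2 control cultures were compared. The submitters' processing notes name the build CanFam3.1 and the tools HISAT2 2.1.0 and featureCounts 1.6.0, beside Trimmomatic 0.38, MultiQC and FastQC. No settings, nor any use of strand in counting, are given in the sources used here. The authors ran DEGseq, per the file headers, on 1 exosome against 1 control library per table, after reducing 30951 genes to 11838 and removing 89 and 58 as outliers. In the deposited tables each library's column holds a signal, the reads of a gene over 1 library factor. The deposited mean of both libraries was treated as a score. The log2 folds and the p-values deposited by the authors each compare 1 library with 1.

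All values (100%) were whole multiples of the column's smallest value within 0.001, so whole reads were recovered. These sums leave out genes that the authors removed, so total depth is unknown. Columns were assigned to exosome or control by name only, and pairs by table. Same-numbered libraries come from the same dog by the titles and the names of the tables, and their deviations from group means correlated at 0.818, a value equal for both pairs by construction.

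Tests used limma 3.58.1 (R 4.3.3) on log2(value + 1) over the 11691 shared genes, with the pair as a block, 1 residual and 11.4 prior degrees of freedom, and p-values adjusted after Benjamini and Hochberg (0.05). The added 1 shrinks the folds of low genes. Alternatives were other pseudocounts, scalings and filters, each library left out, and edgeR 4.0.16, limma-voom and DESeq2 1.42.0 on the recovered reads. Intervals of ratios are exact conditional binomial ones. The labels do not say that the libraries of a group are more than single cultures of different dogs, so p-values speak only of these libraries. With 1 residual and 11.4 prior degrees of freedom, the spread behind the limma p-values is taken mostly from all genes together. The fit was also run on simulated data, and no result here is drawn from that run. Members and lists were chosen with earlier results of these data known. Named from each list were called genes and up to 3 with the largest absolute fold among those reaching 50 reads in 1 or both libraries of each pair. For likeness the 2 nearest genes per member were named. CDKN1B, FKBP5, the single markers and the neighbours of KLF3 lie outside this rule and were chosen after their values were seen. The values of 1 gene of the trafficking list are not reported here.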

Additional observations from a re-analysis of the deposited data

Results flagged for a closer look

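KLF10 had opposite signs in the 2 pairs, with a log2 fold of exosome over control of -0.40 in pair 1 and 0.16 in pair 2. KLF4 did too, with -0.22 in pair 1 and 1.89 in pair 2, on 1 to 22 reads per library. Each pair has 1 library per arm, so whether the pairs differ in their response was not tested.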

How the results depend on the processing

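No KLF member was called in any of the fits, and 3 of 7 members were higher in both pairs under each pseudocount and scaling (2 of 4 among members with a mean value of at least 10, and 2 of 4 with at least 50 reads in each pair, a limit added after the data were seen). The number of genes called over the whole table, 87 as reported, depended strongly on the setting. It was 0 without the pair block, with a pseudocount of 0.1, with TMM, median-of-ratios or total scaling, by edgeR and by limma-voom, but 610 with a pseudocount of 5, 656 among genes with a mean value of at least 10, and 160 by DESeq2. At an unadjusted p under 0.05, limma without the block gave 86 higher and 123 lower genes, and edgeR 655 higher and 985 lower. The pair block changed no call of a member. Outside the fits that leave out a library, each member kept its direction, and the lowest adjusted p was 0.0901, for KLF6 with a pseudocount of 5. Leaving out 1 library, which forces a fit without the block, gave 0 called genes each time and log2 folds of -1.90 to 2.86 for KLF3, -0.55 to 0.75 for KLF4, -1.17 to 0.059 for KLF6, -1.76 to 1.30 for KLF7, -0.051 to 0.63 for KLF9, -0.41 to 0.17 for KLF10 and 0.16 to 0.59 for KLF11. These fits mix the pair difference into the treatment. Depth limits KLF4 in both pairs and KLF3 and KLF7 in pair 1.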

Other observations

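Of the 3 protein-coding genes on either side of KLF3 in the order of the assembly UU_Cfam_GSD_1.0, TBC1D1, TLR1 and PGM2 were measured. The others, among them TLR10 directly beside KLF3, were not analysed here. Each measured neighbour had a smaller difference between the pairs than KLF3. Only 26 of 11691 genes had a larger one, so this says little about the locus. TBC1D1, a regulator of glucose transporter traffic, stood at 123 and 135 in the exosome and control library of pair 2, against 128 and 171 in those of pair 1, a log2 difference of -0.20 by limma. TLR1, an innate immune receptor, stood at 9.28 and 9.87 in pair 2, against 1.97 and 8.87 in pair 1 (0.97). PGM2, an enzyme of sugar phosphates, stood at 43.7 and 41.7 in pair 2, against 146 and 148 in pair 1 (-1.76).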
